A study of Mus musculus with 44 samples.

Results

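Alcam encodes CD166, an adhesion protein of the cell surface, and this account compares 20 single mouse macrophages by whether their library held an Alcam read. The cells were chosen by culture plate and then grouped by the measured Alcam value: 13 had a value above 0 and 7 were listed at 0. They are 20 of the 44 cells in the series, and the other 24 come from a second plate. All 20 were osteomacs, the macrophages that line bone, prepared from neonatal calvarial cells of C57BL/6J mice. The cultures were kept for 16 h with 50000 megakaryocytes, the platelet-forming cells of the marrow, and no knockout, transgene or drug is named for any cell. Cells positive for CD45 and F4/80 and negative for CD41 were sorted, captured on plate 7 and sequenced as full-length cDNA. The 24 cells of plate 3 have the same strain, source and sort, and their treatment field says that no megakaryocytes were added, although their titles name them. They go against the macrophage label: of 21 macrophage identity genes a plate 3 cell had reads for 0 to 8 (median 3), against 14 to 21 (median 20) on plate 7. The labels name no animal or culture, so all cells of a plate count as 1 sample, and every difference below describes these cells without a test or p-value.

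CD166 binds CD166 on a neighbouring cell and, on T cells, CD6. Its cytoplasmic tail is tied to actin through ezrin-family linkers and syntenin, and the protease ADAM17 cuts its outer part from the membrane. On marrow cells it is known as a marker of stromal and blood-forming stem cells, and the title of the series names it together with embigin (Emb), another adhesion protein of the same superfamily.

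The values were analysed as CPM, the reads of a gene per 1e+06 library reads, from read numbers recovered out of the deposited signal. The cells with an Alcam read held 71585 to 1103554 library reads (median 856145) and the cells without 69181 to 1212604 (median 801573). Listed genes with a read numbered 1247 to 2533 (median 2164) in the first set and 1883 to 2317 (median 2048) in the second. Cut down at random to 300000 reads a cell, which 18 cells reached, the medians were 2077 and 1857 genes, with 12 and 6 cells. Cells 16 and 11 stood apart with fewer than 100000 reads each, 1 in either set. In cell 16, the nuclear RNA Malat1 took 245233 CPM, against 1335 to 19035 CPM in the other 19 cells, and the actin gene Actb 0.845% of reads, against 5.21 to 12.9%. The share of reads on the 50 most abundant listed genes had medians of 27.2% and 23.5%.

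The macrophage label held in both sets. Of 24 macrophage identity genes, 21 are listed, and each cell had reads for 14 to 21 of them. Csf1r, the receptor of the macrophage growth factor, Cd68, the lysozyme gene Lyz2 and the adaptor gene Tyrobp had reads in all 20 cells. Ptprc, which encodes the sorted antigen CD45, had reads in all 20 too, but only 2.29 and 2.83 CPM in cells 7 and 6. Adgre1, which encodes F4/80, had no read in cells 7, 16 and 19, all 3 with an Alcam read. Of 20 megakaryocyte and platelet genes 3 are listed, Pf4, Rap1b and Plek, which macrophages also express, and the CD41 gene Itga2b is not among them. No gene of the dendritic cell, lymphoid, mast cell, erythroid or endothelial lists is in the table. The 10 listed osteoblast and fibroblast genes summed to 7.25 to 196 CPM (median 13.7) in cells with an Alcam read and 3.88 to 173 CPM (median 8.75) in those without, with the highest sum of either set in its shallow cell.

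Alcam lies on chromosome 16 (mm10, 52248996 to 52454074, minus strand), and no other coding or long non-coding gene of the GENCODE annotation overlaps it. It had reads in 13 of 20 cells (65%, 95% Clopper-Pearson interval 40.8 to 84.6%). That interval treats the cells as independent draws, and with 1 plate it does not cover differences between cultures or animals. Cell 13 had the highest level, 1205 CPM from 980 reads, followed by cell 6 at 530, cell 7 at 321 and cell 15 at 320 CPM. Cells 10, 8 and 2 held 223, 208 and 165 CPM, and cells 17 and 3 held 117 and 114 CPM. The lowest were cell 18 at 76.6, cell 4 at 50.2, cell 19 at 42.6 and cell 16 at 14.0 CPM, the last from a single read. Thus the level spanned a wide range within the cells that had it, and 1 cell gave 36.2% of the 2705 reads. Of the 12 neighbouring pairs in this order, 6 differed by a ratio whose exact binomial interval lay above 1: cells 13 and 6 (2.27-fold), 6 and 7, 15 and 10, 8 and 2, 2 and 17, and 3 and 18 (1.49-fold, 1.03 to 2.20). In the other 6 pairs the interval held 1, so their order was not resolved by the reads. The summed level over the 13 cells was 268 CPM (95% Poisson interval 258 to 278) and 186 CPM without cell 13. Reads carry no molecular identifiers, so such intervals cover counting error only.

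The absence of Alcam reads was measured at depth in most of the 7 cells. Cells 1, 5, 9, 12, 14 and 20 each held 700000 library reads or more. By counting error alone, a count of 0 allows up to 3 reads, which would be 2.47 to 3.88 CPM there. At the summed level of the other cells these cells would have had 207 to 325 reads. Cell 11 is different: its limit is 43.4 CPM, above the level of cells 19 and 16. Its depth was thus too low to detect a low Alcam level. Over all 7 cells the limit is 0.542 CPM. These limits do not cover transcripts lost before sequencing, and such loss was not tested. A deep library could lack reads of a gene whose product was sorted for. Adgre1 had no read in cells 7 and 19, with 873123 and 1103554 library reads. A count of 0 for Alcam therefore does not show that a cell held no Alcam transcript. Thinned to 300000 reads, 12 of 18 cells kept an Alcam read and none crossed to the other set. Thinning only removes reads, so a cell at 0 could not cross, and cells 16 and 11 were too shallow for it. A limit of 10 CPM in place of any read left the sets as they were. It could not move a cell, because the lowest level above 0 was 14.0 CPM. The lowest level inside the split was the single read of cell 16, and next to it the 42.6 CPM of cell 19. Low reads of osteoblast and fibroblast genes occurred in these cells too. Sparc had reads in all 13 and all 7 cells, at summed levels of 3.86 and 3.07 CPM. The single Alcam read of cell 16 is therefore no firm call, and where it came from was not tested.

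**Figure D1:**
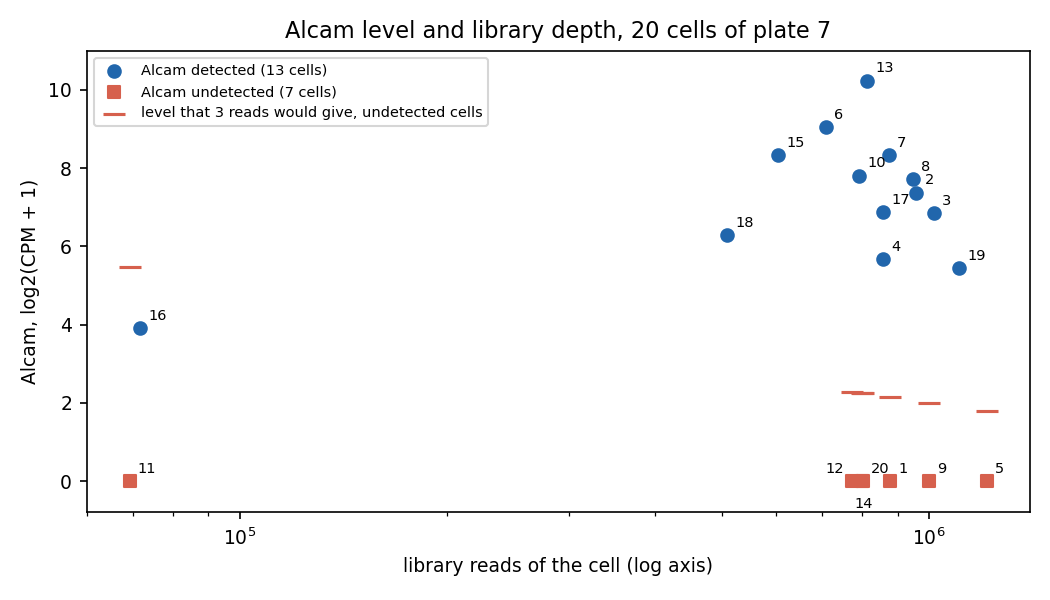
Alcam level (log2 of CPM + 1) against library reads (log axis) for the 20 numbered cells of plate 7; circles had an Alcam read, squares had none, and short bars mark the level that 3 reads would give in the cells without. Of the 7 squares 6 lie at the same depth as most circles, and cells 16 and 11 lie apart at the left.

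Across the other listed genes the sets of cells overlapped. Of 3612 genes, 3026 were read in 5 cells or more and were considered. The difference used below is the mean of log2(CPM + 1) over the 13 cells with an Alcam read minus the mean over the 7 without. It was positive for 1372 genes and negative for 1654, with a median of −0.17 and a 5th to 95th percentile of −2.55 to 2.29. A positive difference of at least 2 was reached by 226 genes (7.47%) and a negative one by 307 genes (10.1%). On summed CPM these counts were 478 and 222, and after thinning to 300000 reads 293 and 245, so which side holds more genes depends on the measure. Scaling by median ratios moved the median over all genes to −0.01. Single genes moved by unlike amounts: Emb went from −1.17 to −0.87, and Rdh13 from 5.99 to 5.96. No gene separated the sets: in 0 of 3026 (0%) did all 13 cells exceed all 7 cells, and in 0 (0%) did all lie below. The rank correlation of 2 cells over these genes had a median of 0.39 over the 78 pairs with an Alcam read, 0.42 over the 21 pairs without and 0.40 over the 91 mixed pairs, a measure added after the values were seen. Cells with an Alcam read were thus about as unlike each other as they were unlike the rest.

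Among the genes higher in cells with an Alcam read were genes of cell junctions, transporters and uptake receptors. Uptake and complement genes as a list did not share this direction, with 8 higher and 6 lower of 14 (median 0.11). The transporter gene Slc20a1 was among the lowest (−5.33). These genes and the lowest ones below were picked for their difference, so the gap between the sets is by choice. Rdh13, a mitochondrial retinol dehydrogenase gene on chromosome 7 (4424770 to 4445649, minus strand), had the largest difference, 5.99. Its level ranged from 0 to 1250 CPM (median 451) in the 13 cells and from 0 to 3.42 CPM (median 0) in the 7. It had 6285 reads in 11 of the 13 cells and 4 reads in 2 of the 7, or 622 CPM (607 to 638) against 0.723 CPM (0.197 to 1.85). In the 13, 10 cells lay above every cell without Alcam, while cells 15 and 16 had no Rdh13 read.

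Ctnnb1 and Ctnna1 encode beta- and alpha-catenin, which join cadherins to actin. Ctnnb1 stood at 0 to 3047 CPM (median 201) in cells with an Alcam read and 0 to 473 CPM (median 1.65) in those without, a difference of 4.02. Cell 7 held 45.3% of its reads, and the summed level without that cell was 296 against 86.5 CPM. Ctnna1 stood at 0 to 891 CPM (median 189) against 0 to 174 CPM (median 0), a difference of 3.90. The scaffold gene Mpp1, whose product ties membrane proteins to the cell cortex, ranged from 0 to 1273 CPM (median 316) against 0 to 287 CPM (median 1.00), a difference of 4.98. In all 3 genes the sets overlapped: 3, 7 and 7 of the 13 cells lay above every cell without Alcam for Ctnnb1, Ctnna1 and Mpp1. On the opposite strand, Ulk4 overlaps Ctnnb1, Lrrtm2 overlaps Ctnna1 and Dkc1 overlaps Mpp1. The reads of such pairs cannot be told apart here.

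Among uptake receptors, Cd36, the scavenger receptor for oxidised lipid and fatty acids, ranged from 0 to 5776 CPM (median 894) in the 13 cells and from 0 to 970 CPM (median 2.495) in the 7. Its difference was 4.40, with 1317 CPM (1295 to 1340) against 221 CPM (209 to 234) in the sums and 927 CPM in the first set without cell 13. In 5 cells with an Alcam read it exceeded every cell without, but cell 17 had no Cd36 read. Clec4n, which encodes the fungal sugar receptor dectin-2, had reads in all 13 cells, at 12.3 to 2534 CPM (median 1009), and in 5 of 7 at up to 818 CPM (median 174). Its difference was 3.81, or 3.15 without the shallow cells. Of the 13 cells 9 lay above all 7.

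The sugar-phosphate transporter gene Slc37a2 (difference 4.21) and the copper importer gene Slc31a1 (3.95) had reads in 9 and 11 of the 13 cells and in 2 of the 7 each. Slc37a2 had medians of 23.4 and 0 CPM, with 8 cells above all 7, and Slc31a1 had medians of 169 and 0 CPM, with 5 above. Gm48081 overlaps Slc37a2, and Cdc26 overlaps Slc31a1, on the opposite strand. The kinase gene Riok3 (4.40) and the phospholipid-binding Sec14l1 (3.88) had medians of 150 and 88.6 CPM against 0 and 0.825 CPM. In Sec14l1, 9 of 13 cells exceeded every cell without Alcam, and in Riok3 7 did. Gpr137b-ps (5.19) is a transcribed pseudogene whose reads may be shared with its near-identical parent Gpr137b, so its value is uncertain. Gpr137b itself stood at 480 against 37.9 CPM, a difference of 3.66.

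Genes lower in cells with an Alcam read included kinases and a transcription factor. Braf, a kinase of the MAP kinase cascade on chromosome 6 (39603237 to 39725463, minus strand), had reads in all 7 cells without Alcam, at 428 to 3111 CPM (median 2009). In the 13 cells it ranged from 0 to 1127 CPM (median 181), with no read in cells 2, 7 and 18. Of the 13, 11 lay below every cell of the other set, and 5 of the 7 lay above all 13. The summed levels were 254 CPM (244 to 264) and 1818 CPM (1783 to 1854), and the difference was −5.22. Ndufb2 overlaps Braf on the opposite strand, as other genes do for 13 of the 24 highest and lowest, and the reads of such pairs cannot be told apart here.

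Prkaa1, a catalytic subunit gene of the energy sensor AMPK, had reads in 6 of 7 cells (median 107 CPM, up to 684) and in 3 of 13 (up to 187). Its difference was −4.16, and cell 9 alone held 57.9% of its reads. Egr1, an immediate early transcription factor gene, stood at 8.25 to 1649 CPM (median 838) in the 7 cells and at 0 to 953 CPM (median 14.0) in the 13, a difference of −4.09. For Egr1, 3 of the 7 cells exceeded all 13.

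The others of this group have roles in RNA, transport and metabolism. Krr1, of ribosome assembly, had the lowest difference (−5.77), with 17.5 to 1058 CPM (median 566) in the 7 cells against 0 to 672 CPM (median 1.41) in the 13. Slc20a1, a phosphate importer gene, stood at medians of 535 against 1.17 CPM (−5.33), and Hsd17b4, of peroxisomal fat oxidation, at 636 against 1.27 CPM (−5.12). The guanine exchange factor gene Dock10 had medians of 194 against 1.41 CPM (−4.74), and Ppp1r21 of 472 against 1.06 CPM (−4.63). Synj2bp had 73.1% of its reads in cell 9, and without that cell stood at 137.6 CPM against 3.76 CPM (difference −4.34 with it). Ugt1a7c (−5.62, medians 236 and 0 CPM) shares its span and strand with 8 other Ugt1a genes, so the member that its reads came from is uncertain.

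**Figure D2:**
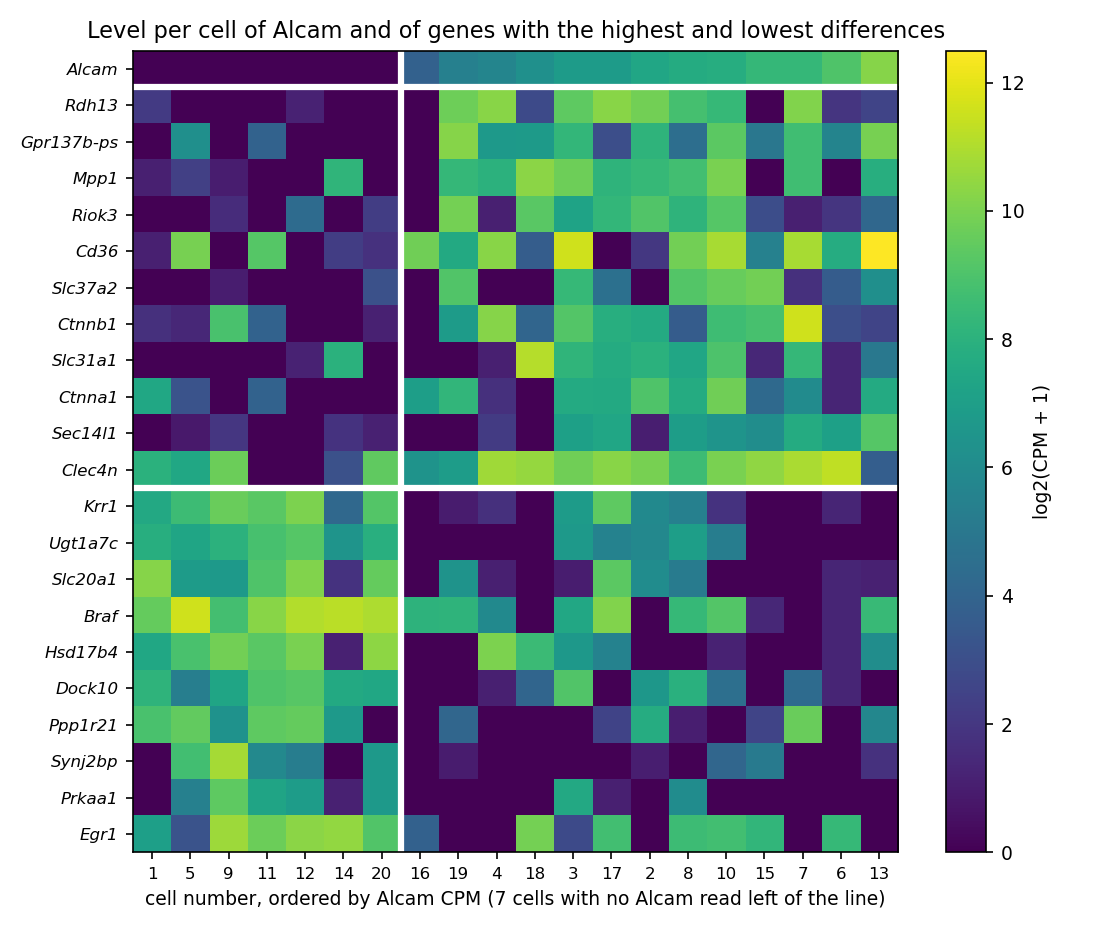
Level of Alcam and of 11 of the highest and 10 of the lowest genes (rows, log2 of CPM + 1 as colour) in each of the 20 cells (columns, ordered by Alcam CPM, the 7 cells with no Alcam read left of the white line). The genes were picked for their difference between these sets, so the upper block is brighter to the right and the lower block to the left by choice. Single cells depart from this, such as cell 17 with no Cd36 read.

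Genes of resident and tissue macrophages were mostly higher in cells with an Alcam read. Of the 22 on this list 10 are in the table and 9 were considered: 8 had a positive difference and 1 a negative one (median 1.63), where 45.3% of all genes had a positive one and their median was −0.17. A difference of at least 2 was reached by 3 upward and 1 downward, against 7.47% and 10.1% of all genes. Maf, a transcription factor of mature macrophages, had 3.63 to 8493 CPM (median 3559) in the 13 cells and 0 to 3568 CPM (median 549) in the 7, a difference of 2.57. The mannose receptor gene Mrc1 (1.63), the scavenger receptor gene Stab1 (2.04) and the growth factor gene Igf1 (1.68) were higher too. Pf4, a chemokine gene, and Hmox1 differed by 0.89 and 0.82, but the sign rested on single cells: without cell 1 or cell 9 Pf4 stood at −0.22, and without cell 9 or cell 12 Hmox1 at −0.01. Trf, which encodes the iron carrier transferrin, had 2843 reads in 7 of 13 cells and 12 reads in 2 of 7 (2.33), with 48.1% of its reads in cell 7. The exception was F13a1, the coagulation factor XIII A chain, with reads in all 7 cells (median 281 CPM) and in 8 of 13 (median 54.4), a difference of −2.74. The summed level of the list was 125.7 to 25295 CPM (median 6897) in the 13 cells and 169 to 9917 CPM (median 2215) in the 7, so the sets overlapped. The count of 8 to 1 was the same on summed CPM, after thinning, without the shallow cells and under other scalings. Leaving out 1 cell at a time gave a median of 0.70 to 2.21.

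The general macrophage genes did not share that direction. Lower values prevailed in 16 of 21 considered and higher ones in 5 (median −0.64), where 54.7% of all genes were lower. A negative difference of at least 2 was reached by 3 of the 21, against 10.1% of all genes. By median ratios the counts were 14 lower and 7 higher, and on summed CPM 12 and 9 (median −0.10). Aif1, an actin-binding macrophage gene, stood at 82.1 to 645 CPM (median 231) in the 7 cells and 0 to 1103 CPM (median 34.9) in the 13, a difference of −3.03. The endotoxin co-receptor gene Cd14 (−2.77) and the complement gene C1qc (−2.15) had medians of 477 and 265 CPM without Alcam reads and of 6.27 and 36.7 CPM with them. Cd68 (1.26) and Csf1r (0.95) were among the 5 higher. The summed level of the list overlapped widely, at 8675 to 64489 CPM (median 25855) against 19352 to 43636 CPM (median 30076).

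All 6 iron and haem genes considered were higher, with a median of 0.82, where 45.3% of all genes were higher. Without the shallow cells 5 of 6 were. A difference of at least 2 was reached by 1 of the 6, Trf, against 7.47% of all genes. Blvrb, a biliverdin reductase gene, stood at 15.2 to 1491 CPM (median 83.5) against 0 to 247 CPM (median 77.5), a difference of 1.73, with 36.5% of its reads in cell 19. The ferritin genes Fth1 (0.82) and Ftl1 (0.23), Hmox1 (0.82), the haem oxygenase gene, and the metal exporter gene Slc11a1 (0.12) differed less. The sign of Hmox1 rested on single cells, as given above. The summed level was 10795 to 40463 CPM (median 16804) in the 13 cells and 5551 to 43001 CPM (median 9361) in the 7, where cell 14 had the highest sum of all 20.

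Of 16 osteoclast genes 4 are in the table, 3 of them higher, with a median of 2.13, where 45.3% of all genes were higher. A difference of at least 2 was reached by 2 upward and 1 downward, against 7.47% and 10.1% of all genes. So few genes do not show a direction of the list. Tnfrsf11a encodes RANK, the receptor that drives macrophages to become osteoclasts. It had reads in 8 of 13 cells and in 4 of 7. Over all cells of each set it stood at 0 to 1013 CPM (median 111) against 0 to 22.5 CPM (median 0.825), a difference of 3.74. The chloride transporter gene Clcn7 (2.39) and the proton pump gene Tcirg1 (1.87) were higher, while Fos was lower (−3.14). Among 5 alternatively activated and repair genes, Gpnmb (2.67) and the matrix protease genes Mmp14 (2.67) and Mmp12 (2.29) were higher. Thbs1 (−1.63) and Spp1 (−0.61) were lower. These 5 genes are likewise too few to set against the 45.3% of all genes that were higher. Cell 6 held 61.7% of Mmp12 reads and cell 19 58.7% of Mmp14 reads. With the gene filter set at 10 cells the median of this list went from 2.29 to −0.61.

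Chemokine genes went both ways within 1 list. The monocyte and inflammatory list held 8 higher and 6 lower genes of 14 (median 0.11). Ccl2, which draws monocytes, ranged from 0.906 to 15052 CPM (median 4665) in the 13 cells and from 1.14 to 9207 CPM (median 14.5) in the 7, a difference of 4.56. Ccl4 had medians of 835 and 3.88 CPM, a difference of 4.12. Its summed levels were 851 and 764 CPM, a log2 ratio of 0.15, and cell 14 alone held 4747 CPM among the 7. Ccl3, the neighbour of Ccl4 on chromosome 11, had the opposite order, at 346 to 2743 CPM (median 1214) without Alcam reads and 0 to 2319 CPM (median 304) with them (−2.86).

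Most heat shock and ER stress genes were lower in cells with an Alcam read. Of 16 considered, 15 were lower, with a median of −0.82, where 54.7% of all genes were lower. A negative difference of at least 2 was reached by 2 of the 16, a share near the 10.1% of all genes, and only the co-chaperone gene Dnaja1 was higher (0.08). On summed CPM the split was 9 lower to 7 higher (median −0.07), so the count rests on the mean of logs. The largest differences were those of the stress transcription factor genes Atf4 (−2.44) and Ddit3 (−2.35) and of the co-chaperone gene Dnajb1 (−1.99). Atf4 had medians of 31.5 and 333 CPM, but summed levels of 261 and 254 CPM. The chaperone gene Hspa5 of the ER stood at 1411 against 2359 CPM (−1.34) and Hsp90ab1 at 1226 against 1655 CPM (−0.72). The summed level of the list ran from 5595 to 29816 CPM (median 12810) against 10127 to 20256 CPM (median 15104).

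Immediate early genes were mixed, with 3 of 8 higher, 5 lower and a median of −1.48, where 45.3% of all genes were higher. Fos had 278 to 1394 CPM (median 1070) in the 7 cells and 0 to 1106 CPM (median 182) in the 13, a difference of −3.14. Egr1 (−4.09), Ier2 (−2.11), Atf3 (−1.77) and Zfp36 (−1.20) were lower as well. Dusp1, a phosphatase gene of the same response, was higher, with reads in all 13 cells (18.1 to 845 CPM, median 315) and a median of 33.6 CPM in the 7 (2.44), as were Jun (1.48) and Klf6 (0.81).

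Genes around CD166 itself showed no shared direction. The 11 partner and processing genes considered split into 4 higher and 7 lower (median −0.20), and without the shallow cells into 7 and 4 (median 0.23). Rdx, which encodes the actin linker radixin, had a median of 7.38 CPM with and 72.3 CPM without an Alcam read (−2.61), and cell 14 held 40.6% of its reads. Cd9, a tetraspanin gene, had reads in all 13 cells (32.7 to 1882 CPM, median 465) and in 5 of 7 (median 202, up to 2244 CPM), a difference of 2.32, but summed levels of 588 and 510 CPM. Pdcd6ip, of vesicle sorting, differed by 1.71, with 50.2% of its reads in cell 7. Adam17, the sheddase gene, stood at 446 against 322 CPM (−0.81), Adam10 at 1342 against 1027 CPM (−0.09) and the syntenin gene Sdcbp at 1683 against 1147 CPM (0.94). For Adam17 and Adam10 the summed level was thus higher, and the mean of logs lower, in the same cells.

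Among adhesion genes the largest differences were those of 2 integrin genes, while the 3 other integrin genes considered differed by −0.38 to 0.64. Itgb1, the beta-1 chain, had reads in all 13 cells at 1.04 to 712 CPM (median 73.3) and in 6 of 7 at up to 25.99 CPM (median 14.2), a difference of 3.45. In 11 of the 13 cells it lay above all 7. Itgav, the alpha-V chain, stood at 0 to 726 CPM (median 72.9) against 0 to 304 CPM (median 11.2), a difference of 2.58. Bsg, which encodes basigin, of the same family as embigin, was lower (−1.34), and the 12 adhesion genes considered split into 7 higher and 5 lower (median 0.11). Emb, on chromosome 13 (117208536 to 117274415, plus strand), had reads in all 20 cells. It ranged from 41.9 to 1875 CPM (median 775) in cells with an Alcam read and from 179 to 3200 CPM (median 1723) in those without, a difference of −1.17, or −0.74 without the shallow cells. In 3 of the 7 cells it exceeded all 13, while cell 14 lay low at 179 CPM. Its rho with Alcam CPM was −0.38 over 20 cells and −0.06 over the 13.

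The sort-marker genes overlapped between the sets. Ptprc had 2.29 to 1101 CPM (median 197) with and 84.8 to 1479 CPM (median 1107) without an Alcam read, a difference of −1.64, and 4 of the 7 cells lay above all 13. Adgre1 had 0 to 1699 CPM (median 344) against 4.00 to 1129 CPM, a difference of −0.64. Its median was higher, and its mean of logs lower, in cells with an Alcam read.

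**Figure D3:**
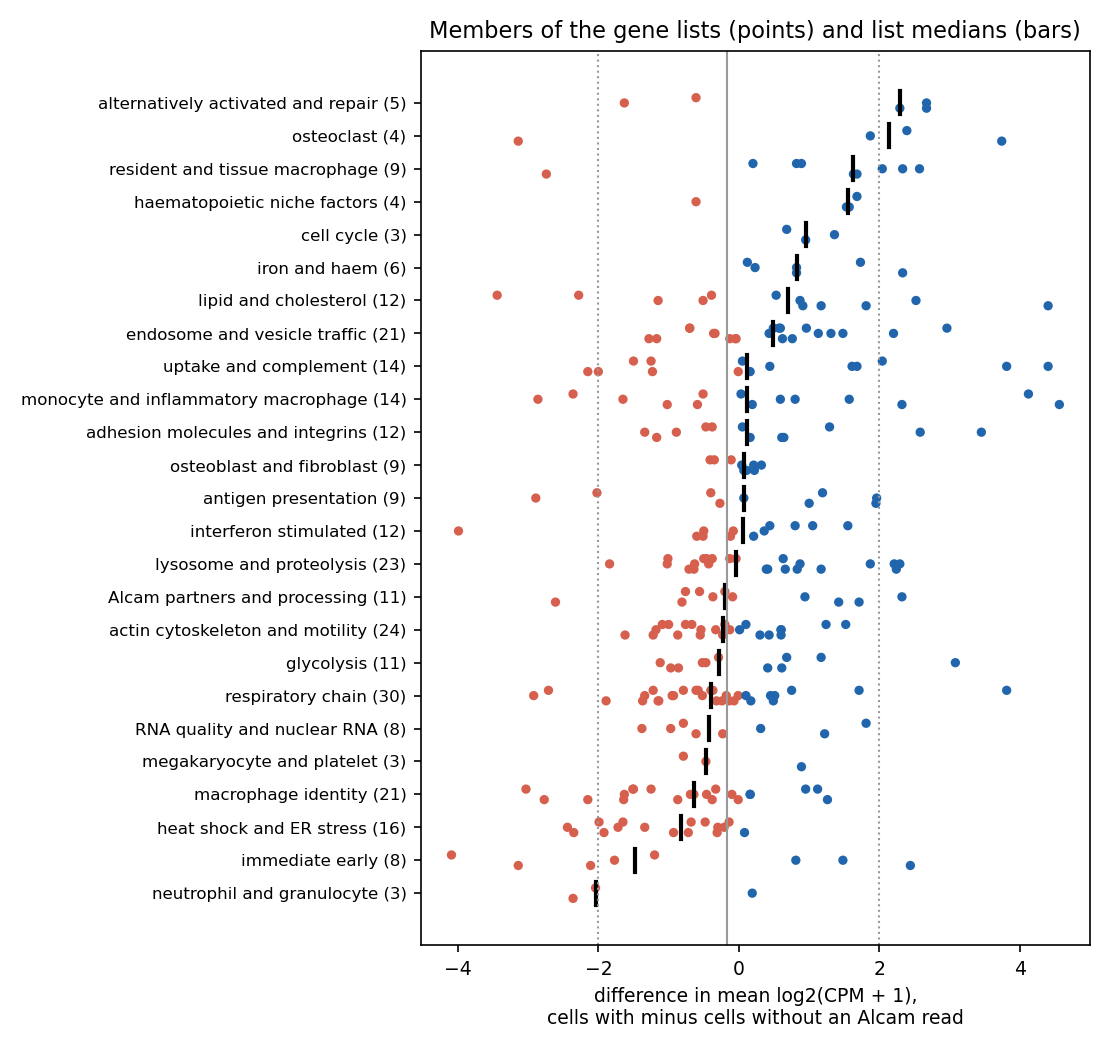
Difference in mean log2(CPM + 1) between cells with and without an Alcam read for each considered member (points, blue above 0 and red below) and the median (black bar) of each gene list, with the number considered in brackets. Dotted lines mark differences of 2 either way and the grey line the median over all 3026 genes, −0.17; resident macrophage genes lie mostly to the right and heat shock genes to the left.

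Over all genes 45.3% were higher and the median was −0.17. The remaining lists had medians from −2.04 to 1.55. Most lay near 0: of all 25 list medians 17 changed sign under at least 1 other setting or left-out cell. Respiratory chain genes were 8 higher and 22 lower of 30 (median −0.39), but 17 higher and 13 lower on summed CPM. Endosome and vesicle traffic genes were 12 higher and 9 lower of 21 (median 0.49), led by Dnm2, the dynamin gene of vesicle scission (2.96), and without cell 12 the median was −0.18. Lysosome genes were 11 higher and 12 lower of 23 (median −0.04), actin genes 9 and 15 of 24 (−0.22), and glycolysis genes 5 and 6 of 11 (−0.29). Interferon genes were 6 and 6 of 12 (median 0.06). Among them Irf1, the transcription factor, had reads in 5 of 7 cells (median 116 CPM) and 4 of 13 (up to 83.8 CPM), a difference of −3.99. Antigen presentation genes were 5 and 4 of 9 (0.07), and 94.0% of the reads of the class II gene H2-Ab1 came from cell 6. Uptake and complement genes were 8 and 6 of 14 (0.11) and lipid genes 7 and 5 of 12 (0.70, or −0.35 without cell 9). Of 4 blood niche factor genes considered 3 were higher (median 1.55), Igf1, Ptgs2 (1.57) and the Notch ligand gene Jag1 (1.53), with medians over cells of at most 3.93 CPM in either set. The 3 cell cycle genes Ccnd1, Pcna and Cdkn1b differed by 1.36, 0.95 and 0.68, and Pcna by −0.31 on medians over cells. Among 3 neutrophil genes (median −2.04) Mmp8 had reads in all 7 cells and 11 of 13 (−2.04), with medians of 734 and 1733 CPM. Of the 3 megakaryocyte and platelet genes Plek differed by −0.79, but by 0.53 on summed CPM, Rap1b by −0.47 and Pf4 by 0.89 as above. The osteoblast and fibroblast genes split into 6 higher and 3 lower (median 0.07), and nuclear and housekeeping RNAs into 3 and 5 (median −0.42).

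Genes were also ranked by how closely their level ran beside that of Alcam in these same cells. Over 20 cells, Spearman's rho with Alcam CPM ranged from −0.80 to 0.70 among the 1353 genes read in at least 15 of them, with a median of −0.04. These are descriptions, since the cells share a plate and differ in depth, and 7 are tied at 0. The genes named for their rho stand at the ends of this ranking by choice, so their rho is no separate support. The 13 cells with an Alcam read are part of the cells that ranked them. Jak1, a kinase of cytokine receptors on chromosome 4 (101152367 to 101265282, minus strand), had the highest rho, 0.70, and 0.85 within the 13 cells with an Alcam read. Its 2 highest levels, 2018 CPM in cell 6 and 1245 CPM in cell 13, were in the 2 cells with the most Alcam, and cells 16 and 19, the lowest for Alcam, had no Jak1 read. Without cells 16 and 11, rho was 0.75 over 18 and 0.81 over 12 cells. In the cells without Alcam, Jak1 stood at 0.825 to 227 CPM, within the range of the others.

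Atp2b1, a calcium pump of the plasma membrane, had rho of 0.69 over 20 and 0.75 over 13 cells, and Lgmn, the lysosomal protease legumain, 0.69 and 0.60. Lgmn stood at 27.9 to 6613 CPM (median 1778) against 15.5 to 1631 CPM (median 322), with 7 of the 13 cells above all 7. Sec61g, of the ER translocon, had 0.67 and 0.69 from only 179 and 35 reads. Arf6, a small GTPase of endosome recycling, had 0.64 and 0.49, and Ms4a7, a tetraspan membrane protein gene of macrophages, 0.62 and 0.53. Without the shallow cells the values within the cells with Alcam were 0.69, 0.49, 0.61, 0.36 and 0.41 in the same order. Sec14l1, read in 14 cells and so below the limit of 15, had rho of 0.73 in both and was singled out after its values were seen.

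The lowest rho was that of Hspa8, the constitutive heat shock chaperone gene on chromosome 9 (40800984 to 40810087, plus strand), −0.80 over 20 cells and −0.66 over 13. In cells without Alcam it lay in a narrow band of 354 to 647 CPM (median 463). In the 13 cells it ranged from 7.86 to 2501 CPM (median 130), and 11 of them were below all 7. The exceptions were cell 19 at 593 CPM and the shallow cell 16 at 2501 CPM, the 2 cells with least Alcam. Without cells 16 and 11, rho was −0.82 and −0.57. Ythdc1, which encodes a reader of methylated RNA, had −0.69 and −0.46, with medians of 2.09 CPM in the 13 cells and 153 CPM in the 7.

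**Figure D4:**
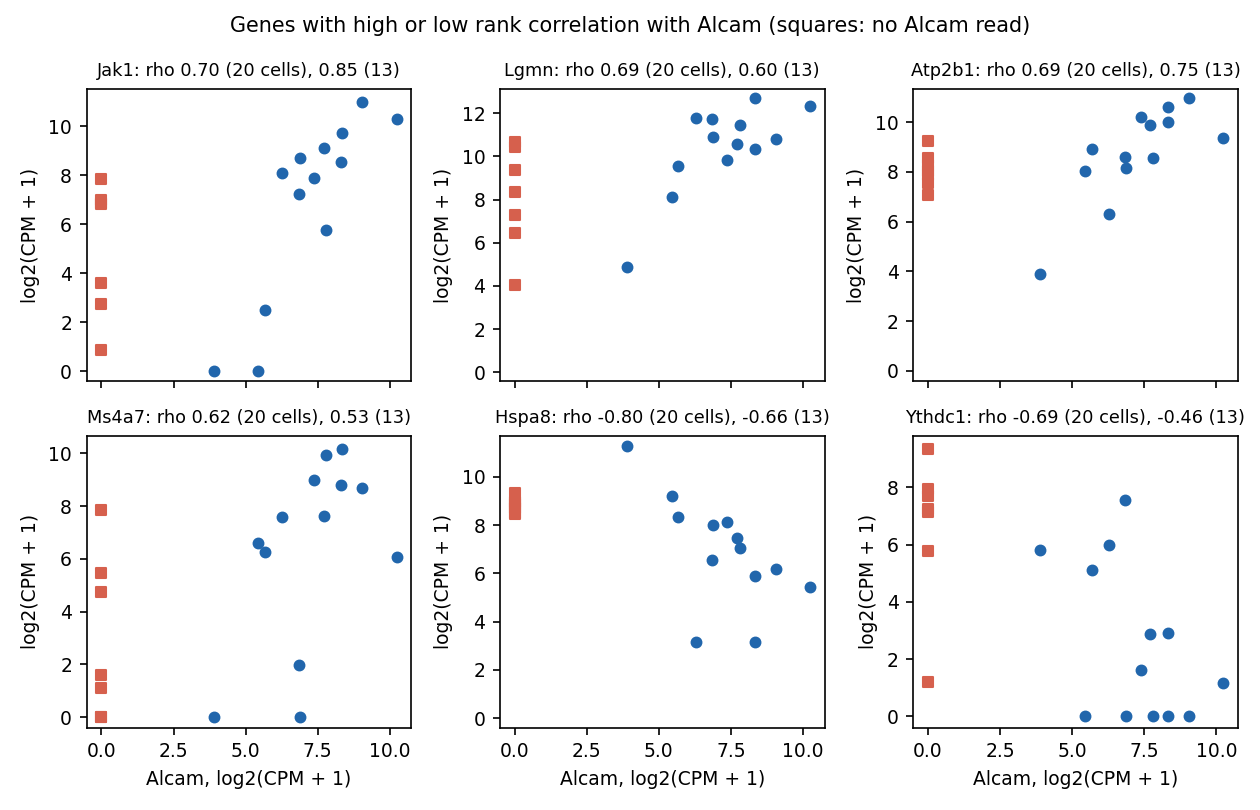
Level of 6 genes against that of Alcam, both as log2(CPM + 1), in the 13 cells with an Alcam read (circles) and the 7 without (squares at 0), with Spearman's rho in each title. Jak1, Lgmn, Atp2b1 and Ms4a7 are higher at higher Alcam, Hspa8 and Ythdc1 lower, and for Ythdc1 3 of the 7 squares lie above every circle.

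On plate 3 the same split divides cells that did not carry the macrophage genes: 19 of its 24 cells had an Alcam read and 5 had none. Ptprc and Adgre1 each had reads in 1 of the 24, at up to 1.99 and 1.63 CPM, and macrophage identity genes summed to 0 to 176 CPM (median 11.6) against a median of 26534 CPM on plate 7. The 10 osteoblast and fibroblast genes summed to 5208 to 102368 CPM (median 14871) there, against 3.88 to 196 CPM on plate 7. Of 2761 genes considered on both plates, 1340 (48.5%) differed in the same direction. Of the 12 highest genes of plate 7, 11 could be followed and 5 had the same sign, and of the 12 lowest 4 of 11. Rdh13 differed by −0.86 there, Cd36 by 0.99, Braf by 0.76 and Egr1 by −1.35. Jak1 differed by 0.15 and Hspa8 by −0.03. The 11 highest had a median of −0.03 on plate 3 against 4.02 on plate 7, and the 11 lowest 0.60 against −4.65, so the differences of plate 7 were not met again in that plate. The plates differ in these marker genes, in megakaryocytes as labelled and in capture, which cannot be told apart, so plate 3 is no repeat of the comparison in macrophages.

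**Figure D5:**
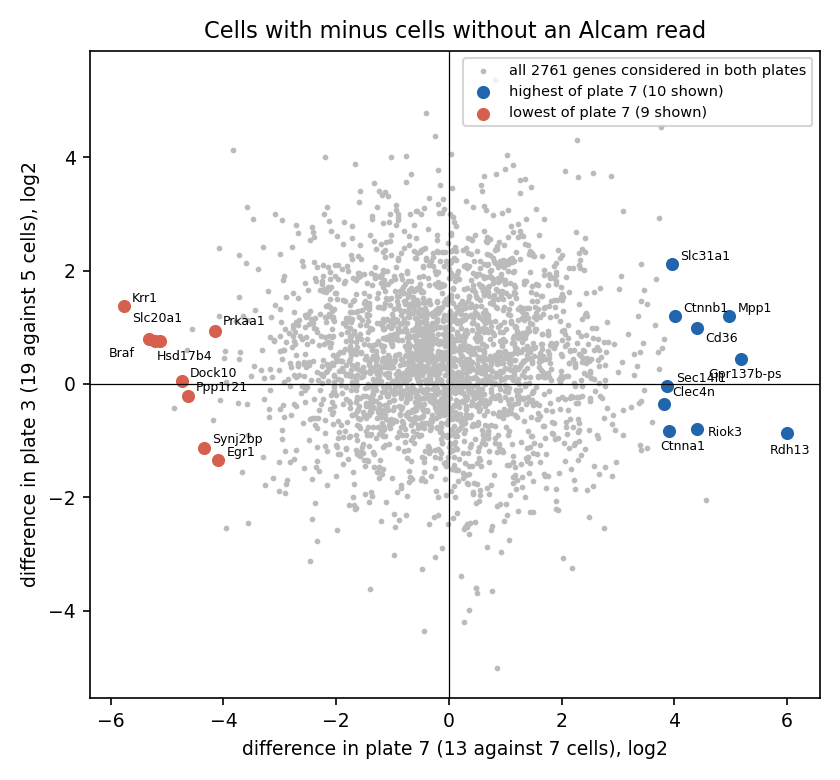
Difference in mean log2(CPM + 1) between cells with and without an Alcam read in plate 7 (horizontal) and plate 3 (vertical) for 2761 genes (grey), with 10 of the highest (blue) and 9 of the lowest (red) genes of plate 7. The coloured genes, far from 0 on the horizontal axis by choice, lie on either side of 0 on the vertical axis.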

How the data were processed

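Fluidigm C1 capture, SMART-Seq v4 cDNA and Nextera XT libraries read on a NextSeq 500 are described per the labels, and the submitters' processing notes name the build mm10 and Seurat. For aligner, counter and annotation nothing is stated in the sources used here. The deposited table holds a signal of 3613 genes in 44 cells, in the form of RPKM: reads × 1e+09 over library reads and a whole number per gene. That number bears no stated relation to gene length, so levels are not compared between genes. The library reads of a cell were taken from its most frequent value, and all 99807 values above 0 came back as whole reads (tolerance 0.0001). The number of a gene was taken as the smallest that gave whole reads in every cell. Where all reads of a gene share a factor, they would therefore come back too low. CPM were computed from these reads, with a pseudocount of 1 on the log2 scale. No doublets were called, and each cell was treated as deposited.

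Genes read in 5 or more of the 20 cells were considered. Named were Alcam, Emb, Ptprc and Adgre1, then the 12 highest and 12 lowest differences, leaving out predicted genes. For these, the share of cells with a read and the summed CPM had to differ in the same direction, the latter 2-fold, also without the top cell. The 3 members with the largest difference of each of 30 gene lists were named too, and the 6 highest and 3 lowest rho. Members, lists and rules were chosen with earlier results of these data known. Alternatives were another pseudocount, gene filter, split, total, scaling, thinning and measure, the deposited values, and leaving out cells. Some genes that these rules name are not reported here. Coordinates come from GENCODE vM21. The scripts were tested on simulated data. Python 3.11.15 was used with numpy 2.4.6, pandas 2.3.3, scipy 1.17.1 and matplotlib 3.10.9.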

Additional observations from a re-analysis of the deposited data

How the results depend on the processing

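Of the main counts, the 226 genes higher by at least 2 became 47 with a pseudocount of 10, 478 on summed CPM, 369 on medians over cells and 517 on the deposited signal. The 307 lower genes became 80, 494 and 628 with that pseudocount, on medians and on the deposited signal. Under the other planned settings both counts stayed within 1.5 times, and leaving out 1 cell at a time, added after the data were seen, gave 196 to 277 and 270 to 375 genes. The median over all genes ran from −0.30 to 0.13, and 45.3% of genes were higher, against 54.2% on summed CPM and 49.8% by median ratios.

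Of 100 named genes 9, and of 25 list medians 17, changed sign under at least 1 alternative, 4 genes and 11 lists with 1 cell left out. The main value was at least 0.5 from 0 for 7 of these genes and 3 of these lists. The repair list went to −0.61 with reads in at least 10 cells, the lipid list ran from −0.35 (without cell 9) to 1.04, and the cell cycle list was 0.00 on medians. The neutrophil list was 0.40 on summed CPM and 0.00 on medians, Mmp8 0.40 and 1.24, and Atf4 0.04 and Plek 0.53 on summed CPM. On medians over cells Adgre1 was 1.32, Plek 0.21 and Pcna −0.31. Pf4 was −0.22 without cell 1 or cell 9, Hmox1 −0.01 without cell 9 or cell 12, and the endosome list −0.18 without cell 12. The limit of 0.5 was set after values were seen. The cause was not tested. No paired analysis was possible because the cells carry no pairing and no test was made. Depth limits cells 11 and 16 most.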
